A study of Mus musculus with 6 samples.

Results

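The Zic genes encode a small family of C2H2 zinc finger transcription factors, and the 4 described here stand in the mouse genome as 2 pairs, Zic1 with Zic4 and Zic2 with Zic5. Their open chromatin in the embryonic retina was taken as every ATAC-seq peak whose summit lay inside one of the 4 genes or, outside all protein-coding genes, had one of them as the nearest by gene end within 100 kb. ATAC-seq marks DNA that the Tn5 transposase can reach. The rule uses position alone and no measured value. It found 133 of the 220089 peaks in the 6 library lists, which merged into 28 of 46780 consensus regions, and 61 peaks in each of the 2 joint lists, 1 for each genotype. All 4 members had peaks, and no filter on low values was applied.

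Zic proteins bind DNA through zinc fingers related to those of the Gli factors, the transcriptional effectors of Hedgehog signalling. In the retina, Zic2 is best known for ganglion cells of the ventrotemporal region, where it turns on the guidance receptor gene Ephb1 and directs axons to the same side of the brain. Zic1 and Zic4 are known for their roles in the cerebellum and the dorsal midline, and Zic5 for the neural crest.

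The libraries came from retinas of C57BL/6 embryos at E14.5 (embryonic day), 3 from Atoh7 +/+ animals (wild type) and 3 from Atoh7 SE/SE animals, homozygous for a mutated shadow enhancer of the ganglion cell factor gene Atoh7. Each library is the retinal pair of 1 animal, so the 3 of a genotype are biological replicates of mixed retinal cells. In such bulk samples, more cells with an open site and a more open site per cell cannot be told apart. PCR cycles numbered 17, 18 and 19 in wild type and 15, 16 and 16 in SE/SE, so amplification and genotype cannot be told apart either.

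Across the whole series, the library lists held 27873 to 34797 peaks in wild type and 39115 to 44242 in SE/SE. The read depth is unknown. Of the 5 consensus regions assigned to Atoh7, 2 had a peak in the 3 wild-type libraries only, against 0.0321% of all consensus regions. Another 2 had one in 6 of 6 libraries, against 52.1% of all, and 0 in the 3 SE/SE libraries only, against 8.23%. Of the 8 genes checked for retina, 7 had a summit within 1 kb of a gene end in 6 of 6 libraries, against 54% of all protein-coding genes. Rax, Pax6, Atoh7, Pou4f2 and Neurog2 were among the 7, and Six3 had such a summit in 4 libraries.

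The DNA just before 3 of the 4 genes is printed here because it holds both a summit that all 6 libraries place on the same base and a stretch with no peak at all. The sequences are RefSeq's for GRCm38.p6, 250 bases before the listed transcription start, 5′ to 3′ on the strand of the gene. Zic1, Zic4 and Zic5 matched by symbol and Zic2 did not. Capitals mark the GC box GGGCGG and the CCAAT box, searched on both strands. Zic1 lies at chr9:91365769-91366018 on the minus strand, Zic4 at chr9:91368722-91368971 on the plus strand and Zic5 at chr14:122465659-122465908 on the minus strand.
Zic1: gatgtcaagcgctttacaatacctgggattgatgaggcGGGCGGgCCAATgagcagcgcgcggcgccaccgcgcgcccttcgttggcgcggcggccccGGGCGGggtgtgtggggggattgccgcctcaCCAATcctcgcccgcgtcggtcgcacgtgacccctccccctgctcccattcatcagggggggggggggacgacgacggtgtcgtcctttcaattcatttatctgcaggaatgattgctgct
Zic4: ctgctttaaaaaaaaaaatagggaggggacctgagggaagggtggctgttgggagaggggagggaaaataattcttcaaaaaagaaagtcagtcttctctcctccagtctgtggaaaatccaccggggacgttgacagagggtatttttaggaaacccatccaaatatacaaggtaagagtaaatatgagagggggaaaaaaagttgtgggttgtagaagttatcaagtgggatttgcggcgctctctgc
Zic5: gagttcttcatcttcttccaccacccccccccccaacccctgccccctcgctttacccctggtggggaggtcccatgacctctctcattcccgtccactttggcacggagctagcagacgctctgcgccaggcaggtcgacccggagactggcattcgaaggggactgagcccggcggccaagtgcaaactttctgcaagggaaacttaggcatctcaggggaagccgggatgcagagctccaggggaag

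The Zic1 stretch was GC-rich, at 66.0%, with 27 CpG sites, against medians of 52.4% and 6 over all 32851 promoters of the table. It was overlapped by a peak in 6 of 6 libraries and in both joint lists, and all 6 libraries placed a summit on the same base, 159 bases before the start. The first GC box begins 212 and the second 152 bases before the start, and the CCAAT boxes begin 205 and 121 bases before it. GGGCGG occurs in 32.7% and CCAAT in 33.8% of all promoters over the same length, so neither box is rare. The Zic5 stretch had 62.4% GC, 11 CpG sites, no match to either box and an overlapping peak in all 8 lists. The Zic4 stretch had 44.4% GC, 4 CpG sites and no match to either box, and it was overlapped by a peak in none of the 6 libraries and neither joint list. This start of Zic4 lies inside its longest annotated span, which overlaps the Zic1 start.

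Of the other fixed motifs, the E-box CANNTG was found once in each stretch, 98 bases before the start in Zic1, 26 in Zic4 and 71 in Zic5, and in 66.2% of all promoters. TATAAA (12.4% of promoters), TAATTA (4.84%), TAATCC (6.25%), ACAAAG (16.5%), the Gli motif TGGGTGGTC (0.225%) and the Zic core CAGCAGG (8.44%) had no match in the 3 stretches. A match is only a match of letters in this window.

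Zic2 (gene ID 22772, chromosome 14, 122475384 to 122480328) had the family's strongest region in every library. It lay at 122473529 to 122475914 and is called B10 here, with regions numbered along the genome as A1 to A16 for Zic1-Zic4 and B1 to B12 for Zic2-Zic5. The authors' signal value, column 7 of their lists, is described as a rank or percentile within its own list, since nothing says that the libraries were brought to a common scale. The B10 peak ranked 120 of 31340 in wild type 1, 237 of 34797 in wild type 2 and 189 of 27873 in wild type 3. In SE/SE it ranked 108 of 39115, 113 of 42722 and 108 of 44242. All 6 libraries thus place it among the highest peaks in the genome, and its ranks in SE/SE are the highest 3.

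The B10 peak was 1984 to 2349 bp wide and ran over the lower end of Zic2 in all 6 libraries. Its summit lay 1085 to 1189 bp outside the gene, inside the noncoding RNA gene 2610035F20Rik (122470377 to 122475199). It stood out by width and signal value and less by −log10 p. By the authors' −log10 p the same peaks were at percentiles 90.3 to 95.8 of their lists, below their percentiles of 99.3 to 99.8 by signal value.

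Zic5 (gene ID 65100, chromosome 14, 122459160 to 122465658) had the family's next strongest region, B8, at 122463833 to 122465888. Its signal value stood at percentiles 98.9, 98.9 and 98.2 in wild type 1, 2 and 3, and at 99.2, 99.4 and 99.5 in SE/SE 1, 2 and 3. The summit was on the same base in all 6 libraries, 122465582, which is 76 bp inside the gene from its start. The 1883 to 2045 bp of these peaks were wider than at least 99.4% of the peaks in each list. B8 covers the start of Zic5 and B10 the lower end of Zic2, neighbouring genes whose spans are 9726 bp apart.

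Beyond the other end of Zic5, 2 further strong regions were present in 6 of 6 libraries. B1, at 122450014 to 122451391, overlaps the end of the noncoding RNA gene Gm5089 (122365679 to 122451146) and stood at percentiles 94.8 to 96.0 in wild type and 96.7 to 97.2 in SE/SE. B3, at 122452600 to 122454002, stood at 72.5 to 86.3 in wild type and 88.5 to 92.3 in SE/SE. It was 1 peak in wild type 1 and in each SE/SE library, 2 peaks in wild type 2 and 3 in wild type 3, so its lowest value, 72.5 in wild type 3, belongs to a library that split it. The Zic2-Zic5 pair thus had 4 regions in 6 of 6 libraries, and the highest 3 of the family by median percentile were among them.

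**Figure D1:**
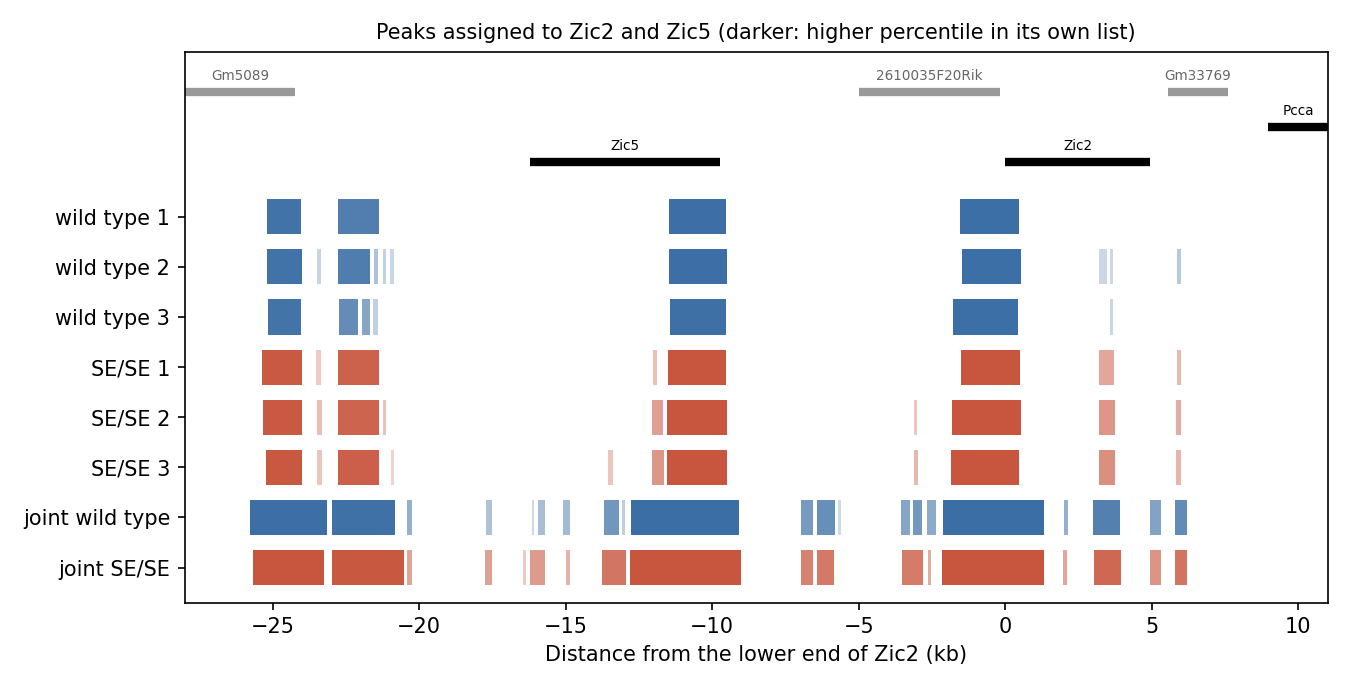
Peaks assigned to Zic2 and Zic5 in 6 libraries and 2 joint lists (rows), by distance in kb from the lower end of Zic2, with protein-coding genes in black and other genes in grey; darker bars have a higher percentile of signal value in their own list. The 4 broad bars shared by all rows are regions B1, B3, B8 and B10, from left to right.

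The weak regions of this pair varied between libraries. At the far end of Zic2, B11 (122478592 to 122479120, inside the gene) had no peak in wild type 1, percentiles of 3.29 and 3.94 in wild type 2 and 3, and 36.4, 48.7 and 54.7 in SE/SE. B12 (122481222 to 122481385), past the gene's higher end, had a peak in wild type 2 at percentile 16.1 and in SE/SE at 21.6, 30.4 and 24.3. Because the summit of B10 is more than 1 kb from the gene, B12 alone gave Zic2 a summit within 1 kb of a gene end, in 1 wild-type and 3 SE/SE libraries. The B12 summits lay 959 to 1000 bp from that end, at the edge of this limit, and inside the noncoding RNA gene Gm33769 (122480933 to 122482990). Inside Zic5, B7 (122463339 to 122463730) had a peak in the SE/SE libraries only, at percentiles 16.0, 41.4 and 47.8. B7 lies beside B8, and in the joint lists a single peak, at percentile 99.8 in wild type and 99.9 in SE/SE, overlapped both.

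The remaining 5 weak regions of the pair were B2, B4, B5, B6 and B9. B2 had a peak in wild type 2 and 3 SE/SE libraries, at percentiles 5.56 to 17.4. B4 and B5 each had one in wild type 2 and 1 SE/SE library, B6 in SE/SE 3 alone and B9 in SE/SE 2 and 3. By percentile, all of these peaks were below every peak of A8. In wild-type libraries, 0 of the 5 regions had a peak outside wild type 2.

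Between the ends of this pair and its protein-coding neighbours, the nearest regions left out by the rule had a peak in 6 of 6 libraries. A region at 122482101 to 122483052, 2485 bp from Zic2 by its median summit, was assigned to Pcca, which starts at 122484365, and had a median percentile of 68.3. On the other side, a region at 122406558 to 122407251 was assigned to Clybl, 52.3 kb from Zic5, with a median percentile of 61.6.

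Zic1 (gene ID 22771, chromosome 9, 91358058 to 91365768) and Zic4 (gene ID 22774, 91365631 to 91389351) overlap at the Zic1 start and the lower end of the longest Zic4 span. Both of these ends are covered by 1 consensus region, A11 at 91364109 to 91366563, which does not reach the Zic4 start printed above. In 5 libraries it consisted of a broad peak inside Zic1 and a narrower one over the printed Zic1 stretch, and in wild type 1 and 3 also of a weak peak beside the latter, at percentiles 31.5 and 32.8. In wild type 1, 2 and 3 and SE/SE 1 and 2, the broad peak was at percentiles 86.9, 91.6, 87.4, 93.3 and 94.7 by signal value. The narrower peak was at 73.8, 77.9, 73.5, 78.9 and 80.3. SE/SE 3 had 1 peak over the whole region, at 98.7, so that value is not comparable with the other 5.

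By −log10 p the order of the A11 peaks turned. The narrow peak at the Zic1 start stood at percentiles 89.1, 89.1, 87.1, 91.7 and 90.8 in the 5 libraries that separate it, and the broad one at 68.5, 72.0, 70.3, 75.3 and 77.6. The signal value thus ranks the broad peak first and the −log10 p the start. The start peak is assigned to Zic4, because its summit lies in the Zic4 span, although it is nearer to the Zic1 start.

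Inside Zic1, A10 (91361568 to 91362605) had a peak in 6 of 6 libraries, at percentiles 78.6, 80.5 and 77.4 in wild type and 85.7, 86.7 and 86.6 in SE/SE. Inside Zic4, A14 (91381307 to 91382149) stood at 84.7, 88.3 and 86.1 in wild type and 90.9, 90.4 and 90.8 in SE/SE, with all summits within 10 bp. A12 and A15, on either side of A14 in Zic4, were in 6 of 6 libraries at 39.0 to 54.9 and 45.2 to 53.3 in wild type and 61.2 to 65.8 and 60.3 to 65.4 in SE/SE. A12, A14 and A15 thus lie well past the Zic4 start printed above, which no library peak covers. The start peak of A11, also in the Zic4 span, lies before it.

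Outside the pair, A3, A5 and A8 lay 7041, 4997 and 2197 bp beyond the end of Zic1, and A16 lay 24815 bp beyond Zic4, inside the noncoding RNA gene Gm29478. All 4 had a peak in 6 of 6 libraries. A5 was the weakest of the regions shared by all libraries, at percentiles 12.2, 32.4 and 10.4 in wild type and 37.7, 34.4 and 42.5 in SE/SE.

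**Figure D2:**
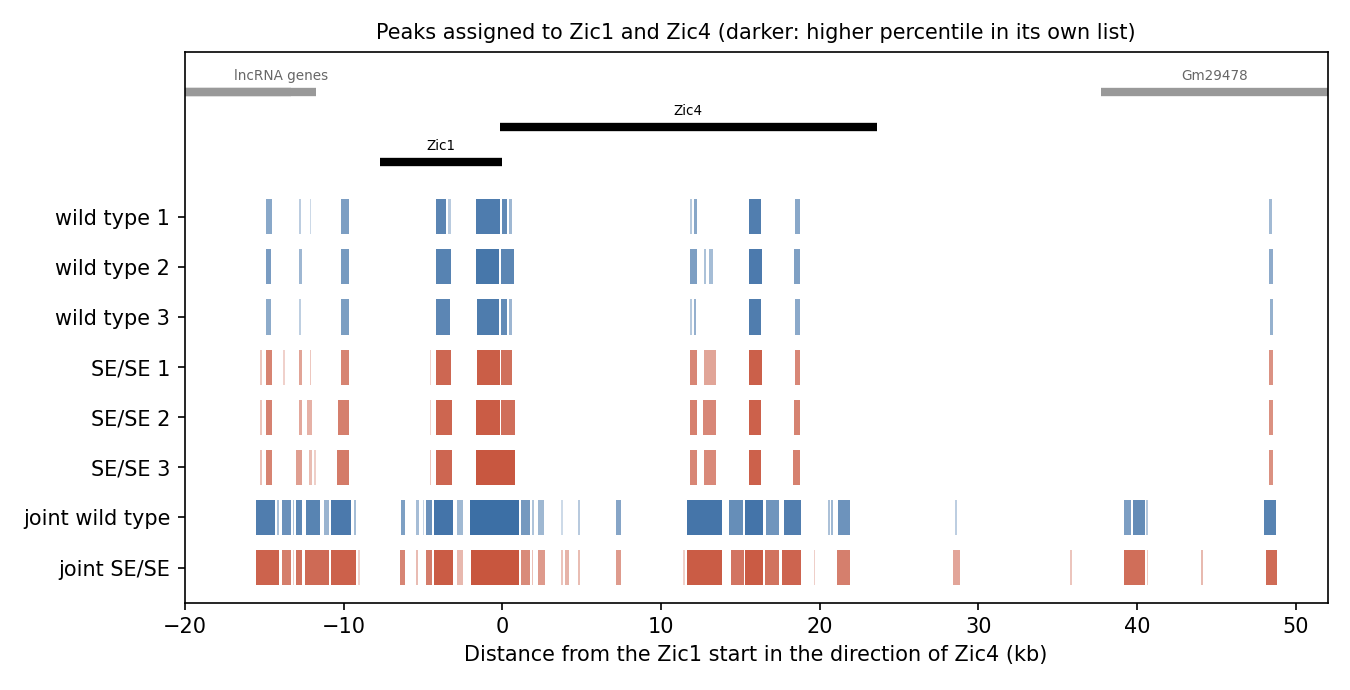
Peaks assigned to Zic1 and Zic4 in 6 libraries and 2 joint lists (rows), by distance in kb from the Zic1 start, with protein-coding genes in black and noncoding RNA genes in grey; darker bars have a higher percentile of signal value in their own list. Region A1, 62121 bp from Zic1, is outside the plotted stretch. The broad bars around 0 are region A11, and the next library peaks in Zic4 are those of A12.

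Among the weak regions of Zic1-Zic4, A2 and A9 had a peak in the SE/SE libraries only. A2 (91350531 to 91350642), beside A3, stood at percentiles 10.5, 12.0 and 17.5, and A9 (91361210 to 91361309, inside Zic1) at 1.61, 0.669 and 12.1. A13 (91378444 to 91379245, inside Zic4) had a peak in wild type 2 at 27.2 and in SE/SE at 37.0, 60.4 and 58.9. A6 had one in wild type 1 and all SE/SE libraries, at 1.25 to 27.4. A1, A4 and A7 had a peak in 1 SE/SE library each, at percentiles 6.29, 1.99 and 4.26. Apart from A13, these peaks were in the lower part of their lists, close to where a peak is not listed at all.

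**Figure D3:**
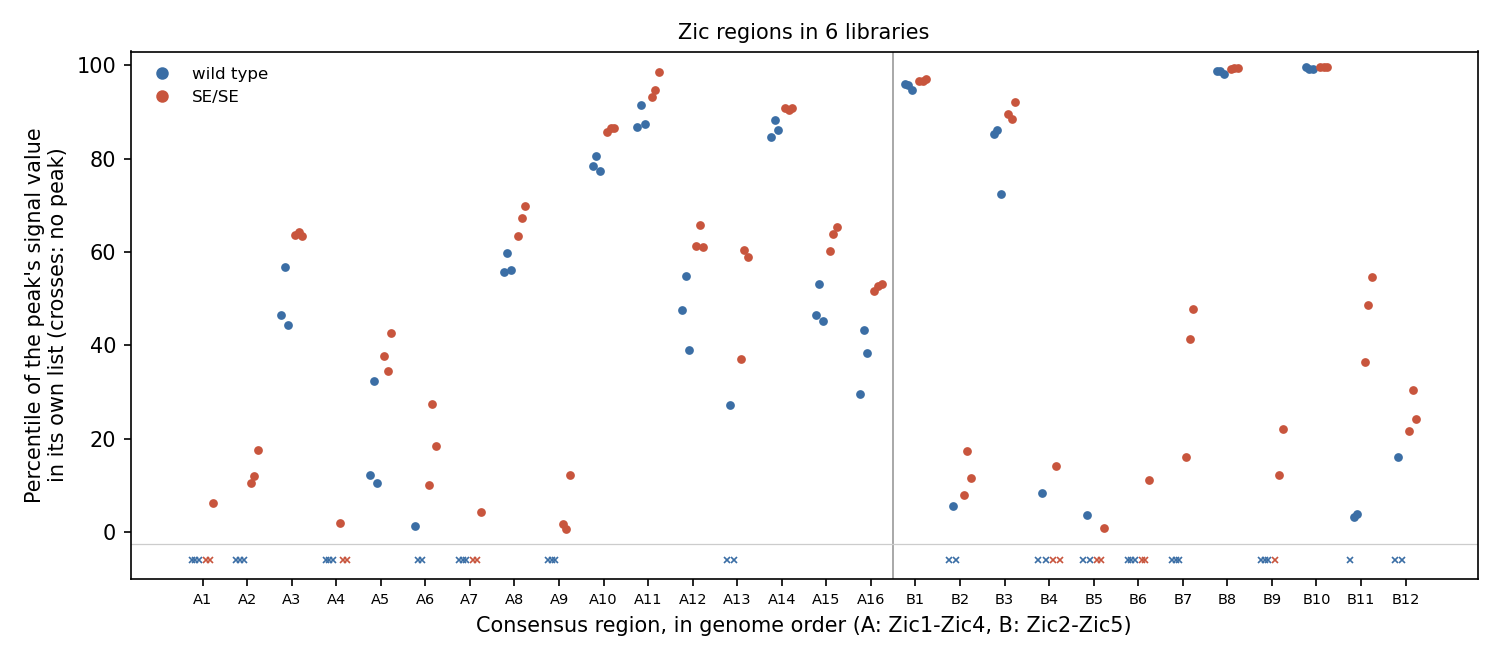
Percentile of the signal value within its own list (y axis) for the strongest peak of each library in the 28 consensus regions (x axis, A1 to A16 for Zic1-Zic4 and B1 to B12 for Zic2-Zic5); each point is 1 library, and crosses mark libraries with no peak. In the 13 regions with 6 points, the 3 SE/SE points lie above the 3 wild-type points.

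Of the 28 regions, 13 (46.4%) had a peak in 6 of 6 libraries, against 52.1% of all consensus regions. In 3 (10.7%) a peak was found in 3 SE/SE and 0 wild-type libraries, against 8.23% of all regions. None had the opposite pattern, which was seen in 0.0321% of all regions. The remaining 12 (42.9%) were partly shared, against 39.6%. These shares are near those of the genome, so the Zic regions show no genotype pattern of their own by presence. By pair, 9 of 16 Zic1-Zic4 regions and 4 of 12 Zic2-Zic5 regions were in 6 of 6 libraries.

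The number of Zic peaks per library overlapped between genotypes. It was 18, 23 and 19 in wild type 1, 2 and 3 and 23, 24 and 26 in SE/SE 1, 2 and 3. The means were 20 ± 2.65 and 24.3 ± 1.53 (SD, n = 3; two-sided exact permutation p = 0.2, adjusted p = 0.3 over 6 tests). With 3 against 3 libraries this test cannot give a p under 0.1. Zic1-Zic4 had 14, 12 and 12 peaks in wild type and 15, 14 and 15 in SE/SE (exact permutation p = 0.2, adjusted p = 0.3), and Zic2-Zic5 had 4, 11 and 7 and 8, 10 and 11 (exact permutation p = 0.5, adjusted p = 0.5). Wild type 1 had the fewest Zic2-Zic5 peaks, and the difference of 2.33 was 0.667 without it and 4.17 without wild type 2. By gene, Zic1 had 7, 5 and 5 peaks in wild type and 9, 8 and 9 in SE/SE. Zic4 had 7, 7 and 7 against 6, 6 and 6, so the genes of this pair went in opposite directions, each without overlap. Zic2 (1, 4 and 2 against 3, 4 and 4) and Zic5 (3, 7 and 5 against 5, 6 and 7) overlapped. No share of all genes was counted for such differences, and they were not tested.

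The bases covered by these peaks did not overlap between genotypes. They were 11911, 13637 and 11717 bp in wild type and 14874, 16481 and 16860 bp in SE/SE, a ratio of 1.29 (exact permutation p = 0.1, the smallest possible, adjusted p = 0.3). All peaks together covered 12.6 to 15.5 Mb in wild type and 17.4 to 19.95 Mb in SE/SE, a ratio of means of 1.36. As a share of those bases the Zic peaks were lower in SE/SE, at 0.0845 to 0.0854% against 0.0876 to 0.0930%, without overlap, so the higher Zic coverage did not exceed that of the genome. As a share of all peaks in a library, the Zic peaks came to 0.0639 ± 0.00569% for wild type against 0.0579 ± 0.00151% for SE/SE (SD, n = 3; exact permutation p = 0.3, adjusted p = 0.36). That difference, -0.00598 percentage points, was -0.00922 without wild type 1 and -0.00385 without wild type 3, and it turned to 0.00144 with the upper 50% of each list.

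With the strongest 27873 peaks of each library, the length of the shortest list, the difference in Zic peaks turned round. Wild-type libraries then had 17, 17 and 19 and SE/SE libraries 16, 16 and 16, a difference of -1.67 (exact permutation p = 0.1). For Zic1-Zic4 it was -2.0, from 13, 12 and 12 against 11, 10 and 10 peaks. The bases covered were 14944 ± 798 bp in SE/SE and 12119 ± 604 bp in the wild-type libraries (SD, n = 3; exact permutation p = 0.1), a ratio of 1.23, and the bases of all peaks in these lists had a ratio of 1.24. The Zic share of bases then overlapped, at 0.0880 to 0.0930% in wild type and 0.0893 to 0.0907% in SE/SE. In the lists as deposited, A12 was split into 2 peaks in wild type 1 and 3 and B3 into several in wild type 2 and 3, while both were 1 peak in every SE/SE library. A11 was 3, 2 and 3 peaks in wild type and 2, 2 and 1 in SE/SE, and A10 was 2 peaks in wild type 1 and 1 peak in every other library. The part of such splits in the counts at equal length was not tested.

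**Figure D4:**
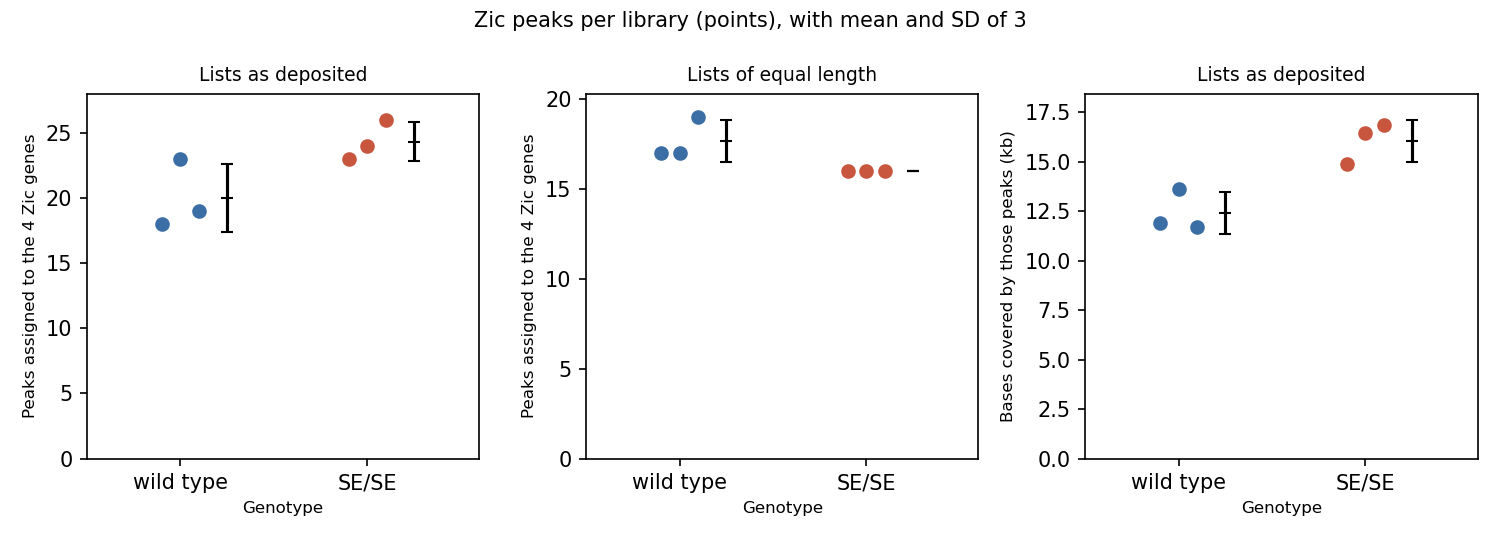
Zic peaks per library with lists as deposited (left) and cut to equal length (middle), and bases in kb that those peaks cover with lists as deposited (right); each point is 1 library, with the mean and SD of 3 libraries beside them. Wild-type and SE/SE counts overlap on the left at 23 peaks, do not overlap in the middle, where SE/SE is lower, and do not overlap on the right, where SE/SE is higher.

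Within regions shared by all libraries, Zic peaks ranked higher in SE/SE lists. In all 13 regions the 3 SE/SE percentiles lay above the 3 wild-type ones, as they did in 75.9% of the 24370 regions shared across the genome. The median over the 13 regions was 78.6, 80.5 and 72.5 in wild type and 85.7, 86.7 and 86.6 in SE/SE, a difference of 9.14 percentile points (exact permutation p = 0.1, adjusted p = 0.3). The same median over all shared regions was 60.7, 64.7 and 55.7 in wild type and 68.7, 71.4 and 72.4 in SE/SE. A percentile depends on the length of its list, and the SE/SE lists are the longer ones. With lists of equal length, 4 of the 12 Zic regions shared by all libraries kept that order, against 13.9% of all such regions. The reverse order was found in 0 of the 12 and in 3912 of all 22709. The medians were then 79.3, 79.2 and 74.9 in wild type and 82.7, 81.0 and 82.1 in SE/SE. In the lists as deposited, the mean difference in the 13 regions was largest at A5 (19.9 points) and smallest at B8 and B10 (0.730 and 0.318 points), which stood near the top of every list.

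By their medians, the shared Zic regions were wider and ranked higher than those of the genome. Their median width was 843 bp, against 604.5 bp for all regions in 6 of 6 libraries, and their median percentile was 79.5 against 66.6. The 12 partly shared Zic regions had a median width of 157 bp (175 bp over all such regions) and a median percentile of 14.2 (19.5). These are descriptions without a test.

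The joint lists held many more Zic peaks than the libraries, 61 for each genotype, 40 at Zic1-Zic4 and 21 at Zic2-Zic5. Of the 61, 40 in each list (65.6%) overlapped no peak of any library, against 60.5% of all joint wild-type and 66.0% of all joint SE/SE peaks. The strongest, over B10, ranked 138 of 104991 in wild type and 110 of 120772 in SE/SE. Of the wild-type joint peaks, 4 of 61 had no overlap in the joint SE/SE list, against 6.28% of all, and the highest of the 4 was at percentile 31.1. Of the SE/SE joint peaks, 11 of 61 had none in the joint wild-type list, against 22% of all, and the highest was at percentile 27.8. Joint lists have no replicates, so these counts have no test.

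Each member's own number of peaks was high for a gene. Averaged over the 6 libraries, 7.17 peaks were assigned to Zic1, 6.5 to Zic4, 5.5 to Zic5 and 3.0 to Zic2, against a median of 1.0 over 21887 protein-coding genes. Fewer peaks were assigned to 97.4% of genes than to Zic1, to 96.6% than to Zic4, 95.0% than to Zic5 and 85.2% than to Zic2. A gene takes peaks up to 100 kb away only where no other gene is nearer, so these values also reflect spacing: the nearest protein-coding gene outside the pair, Plscr5, is 821 kb from Zic1 and 797 kb from Zic4, while Pcca starts 4.04 kb beyond Zic2.

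By the number of peaks in each of the 6 libraries, the single genes most like the Zic1-Zic4 pair were Rgs3, Camta1, Nr2f1, Sema3a and Ralgapa2, with summed absolute differences of 5, 6, 6, 6 and 7 peaks. In all, 7 genes were within 7, so the fifth is the first of tied genes by name. For Zic2-Zic5 they were Rhof, Grip1, Klf12, Mbp and Trak1, with 4, 6, 6, 6 and 6. In Rhof, for example, the libraries had 5, 9, 6, 8, 10 and 11 peaks in the order used above.

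Among the related Gli and Glis genes, Glis1 had a summit within 1 kb of a gene end in 0 of 6 libraries, and the other five had one in 6 of 6. Over all protein-coding genes, 54% had such a summit in 6 of 6 libraries and 40% in none. Zic1, Zic4 and Zic5 had a summit within 1 kb of a gene end in 6 of 6 libraries.

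Among 16 genes of the ipsilateral ganglion cell program and the optic chiasm, 10 had a gene-end summit in 6 of 6 libraries. They include Ephb1, the guidance receptor gene that Zic2 turns on, and Foxd1, a factor of ventrotemporal retina upstream of Zic2. Ephb1 had 4, 5 and 5 assigned peaks in wild type and 8, 8 and 10 in SE/SE, and Foxd1 7, 7 and 6 and 8, 6 and 5. The SE/SE lists were also longer, at 39115 to 44242 peaks against 27873 to 34797 in wild type. No share of all genes was counted for a difference like that of Ephb1, and it was not tested. The serotonin transporter gene Slc6a4, Isl2, which represses Zic2 in contralateral ganglion cells, the Hedgehog ligand gene Shh and the adhesion gene Tenm3 had a gene-end summit in 0 of 6. They still had assigned peaks, with Tenm3 at 21, 23 and 20 in wild type and 28, 30 and 38 in SE/SE. Isl2 had 2, 2 and 1 and 3, 4 and 5, Shh 0, 2 and 0 and 1, 1 and 2, and Slc6a4 1 in each library. Tenm3 and Isl2, like Ephb1, thus had more in every SE/SE library, and Shh and Slc6a4 did not. The same held for Nrp1 (4, 6 and 3 against 9, 10 and 9), Plxna1 (5, 6 and 3 against 8, 8 and 9) and Nrcam (7, 8 and 6 against 10, 12 and 12), and for no other gene of this list. Of the related zinc finger genes, Gli2, Gli3 and Glis3 also had more in every SE/SE library, while Gli1 had fewer (7, 7 and 6 against 4, 4 and 3). No share of all genes was counted for these differences either. The semaphorin and VEGF receptor gene Nrp1 had a gene-end summit in 2 wild-type libraries and in all 3 of SE/SE, and the cyclin gene Ccnd2 in 0 and 2. None of the 16, and 0 of the 4 Zic genes, had one in every SE/SE library and no wild-type library, a pattern of 0.813% of all protein-coding genes.

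Markers of cells outside the neural retina were counted beside these values. Over all protein-coding genes, 54.8 to 56.9% had a gene-end summit in wild-type libraries and 58.1 to 58.9% in the SE/SE libraries, whose lists are longer. Of 12 periocular mesenchyme genes, 5 to 7 had a gene-end summit in wild-type libraries and 8 to 10 in SE/SE, with Lum and Dcn at 0 of 6. Of 8 pigment epithelium and ciliary margin genes, 5 had one in each wild-type library and 6 in each SE/SE library, with Tyr and Rpe65 at 0 of 6. Of 3 optic stalk genes, 1 had one in each wild-type library and 1 to 3 in SE/SE, which overlap. These counts were not tested, nor was their part in the Zic values.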

How the data were processed

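Open chromatin of 6 retinal libraries was analysed from 8 deposited peak lists in narrowPeak form, 1 per library and 1 joint list for each genotype. Per the submitters' processing notes, the build was GRCm38 (mm10) and the tools included Genrich 0.5, BWA, cutadapt, limma and bedtools 2.27.0. Trimming, Tn5 shift, duplicate removal and how the joint lists were combined are not given in the sources used here. The deposited signal value, which is 20 or more in every list, was ranked within its own list only. The deposited −log10 p-value was ranked likewise, and the deposited score was not used. Read counts were not analysed here, so depth is unknown.

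Summits on chromosomes 1 to 19, X and Y were assigned to RefSeq protein-coding genes of GRCm38.p6, the build of the files. A summit inside a gene went to that gene and any other to the nearest gene end within 100 kb. Library peaks sharing 1 bp or more were merged into consensus regions. Positions count from 1.

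Genotypes were compared by two-sided exact permutation over 20 assignments, for 6 values, with Benjamini-Hochberg adjustment. Members, lists and tests were chosen with earlier results of these data known. The mesenchyme, optic stalk, pigment epithelium and retina lists were added later. Some listed genes are not reported here. Named genes are the 4 members, Ephb1, Foxd1, genes of the zinc finger and ipsilateral lists that were absent in all libraries or differed between genotypes, and the 5 genes per pair with the nearest peak numbers. Retina genes, markers at 0, Plxna1, Nrcam, Gli1, Gli2, Gli3 and Glis3 are named outside this rule. Alternatives changed the gene distance, the point of the peak, the lists, the competing genes, the merging and the libraries. Python 3.11.15, numpy 2.4.6, pandas 2.3.3, scipy 1.17.1 and matplotlib 3.10.9 were used, and the steps were tested on simulated data.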

Additional observations from a re-analysis of the deposited data

How the results depend on the processing

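Of 109 alternative values for 9 results, 100 kept the sign of a difference or stayed within 1.5 times a count. Of 69 differences that kept their sign, 12 moved by over 1.5 times. These totals include values that could hardly change, so they do not measure stability. A difference with the replicate number as a block equals the reported one by arithmetic. Leaving out a library loosens the criteria for shared and SE/SE-only regions, so their counts can hardly fall. Regions in wild type only are rare over the genome, at 0.0321%. With lists of equal length, the difference in Zic peaks was -1.67 and in Zic1-Zic4 peaks -2.0, and the SE/SE-only regions numbered 0. With the upper 50% of each list, the difference in the Zic share of peaks was 0.00144 percentage points, the difference in Zic2-Zic5 peaks was 0.333, 8 regions were in 6 of 6 libraries and 1 was SE/SE-only. Both settings remove weak peaks. When noncoding genes also competed for a peak, the differences were 0.667 in Zic peaks, -0.667 in Zic1-Zic4 peaks and 2123 in bases, and 6 regions were in 6 of 6 libraries, because regions such as A3, A16 and B10 then went to noncoding genes. Leaving out 1 library gave 3 to 6 SE/SE-only regions, the highest without wild type 2, and 13 to 14 shared ones. Regions in wild type only stayed at 0 in every alternative run. With the replicate number as a block, the paired difference in Zic peaks was 4.33 (exact sign-flip permutation p = 0.25, the smallest possible with 3 pairs). Its size equals the unpaired difference by arithmetic, so only the p could change. Equal numbers mark no shared origin in the labels, and same-numbered libraries deviated together only weakly, with correlations of 0.0178, 0.0114 and 0.0426. Without read depth a missing peak is not shown to be closed chromatin.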

Other observations

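The Zic1-Zic4 pair lies in a stretch without other protein-coding genes, and its library peaks were gathered near the genes. On the side of Zic1, 14 consensus regions lay between 100 kb from the gene and the next protein-coding gene, and the nearest of them was 129.8 kb away, with a peak in SE/SE 3 only. Of these 14, 5 had a peak in 6 of 6 libraries. On the side of Zic4 there were 3, the nearest 220.6 kb away, and all 3 had a peak in 6 of 6 libraries. The strongest of the 17, at 90693000 to 90693664, lay 664.9 kb from Zic1 with a median percentile of 79.9. Within 100 kb the outermost region was A1, 62.1 kb from Zic1. Whether any of the distant regions acts on Zic1 or Zic4 cannot be read from peak positions.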
